A study of Mus musculus with 6 samples.

Results

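The 30 genes described here carry out or control the synthesis, transport, storage, turnover and efflux of cholesterol. They were named by symbol, and each matched a single identifier of the count table, 30 of 35275 genes in all. Of them 18 encode enzymes of cholesterol synthesis, 5 encode SREBP proteins and the proteins that hold or release them, and 7 encode proteins of transport, storage, turnover and efflux. All 30 were among the 16137 genes that passed the filter on low counts.

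The study asked what loss of the transcription factor SOX2 in astrocytes does to gene expression, and sequenced poly(A) RNA from whole spinal cord of C57BL/6 mice. The Sox2 cKO group (n = 3) carried mGfap-Cre and the floxed allele, mGfap-Cre:Sox2fl/fl, and the sample labels give the Ctrl group (n = 3) as mGfap-Cre:Sox2+/+. The design text gives mGfap-Cre or Sox2fl/fl for the controls and the paper gives Sox2fl/fl littermates, so the sources differ on the alleles of Ctrl. They also differ on age, with postnatal day 90 in the characteristics and day 80 in the protocol. RNA integrity numbers exceeded 6.8 by the protocol. The paper gives a higher minimum. This Cre line, driven by the mouse Gfap promoter, acts in most astrocytes of brain and spinal cord, whereas the RNA came from every cell type of the cord. Males and females were present in both groups, and sex did not enter the tests. The deposited columns are numbered and carry no sample name. Columns 2, 4 and 6 were assigned to Ctrl, and Sox2 cKO received columns 1, 3 and 5. Depth overlapped between the groups, with 22444930, 25015776 and 21983098 counts on genes for the Ctrl columns in that order. The Sox2 cKO columns held 21507911, 28392184 and 26166638 counts.

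Cholesterol in the nervous system is made locally, because lipoproteins of the blood do not cross the blood-brain barrier, and myelin holds most of it. Acetyl-CoA is turned into mevalonate, then into isoprenoids, squalene and lanosterol, and a last series of steps yields cholesterol. The SREBP transcription factors switch on the enzymes when sterol is low, and astrocytes pass cholesterol to neurons on particles that carry apolipoprotein E.

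Sox2, the deleted gene, was examined first. Levels are given as CPM, counts scaled to a common library total with TMM factors, always in the order 2, 4, 6 for Ctrl and 1, 3, 5 for Sox2 cKO. Sox2 measured 19.9, 14.8 and 29.5 CPM in Ctrl but 3.16, 2.69 and 2.98 CPM in Sox2 cKO. All 3 Sox2 cKO libraries were below all 3 Ctrl libraries, with a log2 fold change of -2.86 ± 0.24 (SE, adjusted p = 0.000956). Fold changes are Sox2 cKO against Ctrl throughout, from edgeR's quasi-likelihood test with Benjamini-Hochberg adjustment over all genes tested.

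Across the 30 genes, 7 were called at an adjusted p below 0.05, which is 23.3% of them beside 24.6% of all genes tested. The genes that fell were Hmgcs1, Srebf2, Scap, Stard4, Soat1 and Abcg1, 6 in all (12.4% of all genes tested were called lower), and the single gene that rose was Cyp46a1 (12.2% were called higher). These 7 were also the members that differed by more than 1.2-fold. The share called was thus near that of all genes, and the median log2 fold change was -0.04 over the 30 and 0.02 over all genes tested. The calls by role were 1 of 18 synthesis enzymes, 2 of 5 genes of SREBP regulation and 4 of 7 genes of transport, storage and efflux. With a correction for gene length they were 2 of 18, 1 of 5 and 1 of 7, beside 13.1% of all genes tested. Whether these shares differ from each other was not tested.

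**Figure D1:**
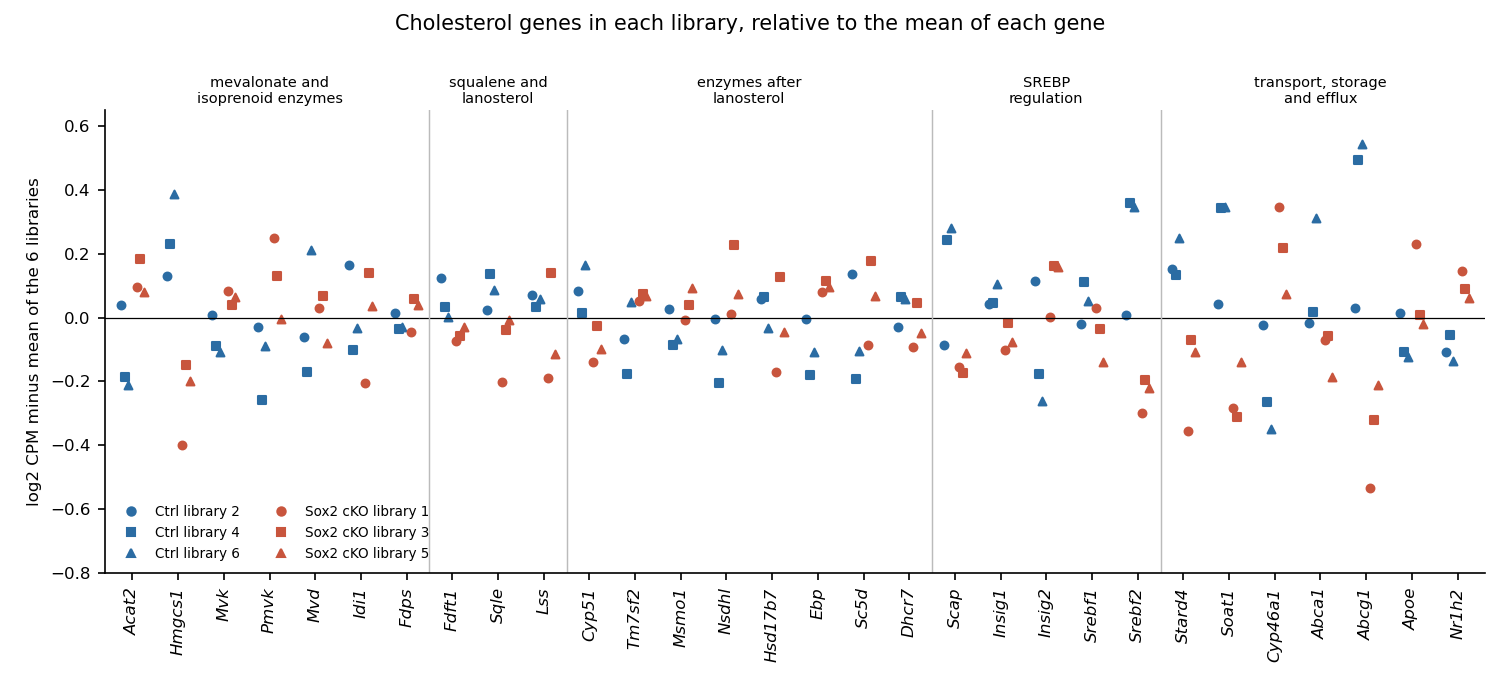
Level of each of the 30 genes in each library, as log2 CPM minus the mean of that gene over the 6 libraries, ordered by role, with the 3 Ctrl libraries in blue and the 3 Sox2 cKO libraries in red. The colours separate for 19 genes, among them Hmgcs1, Srebf2, Soat1 and Abcg1, and mix for 11.

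The libraries of the groups did not overlap in CPM for 19 of the 30 genes, beside 44.7% of all genes tested. In 11 of these Sox2 cKO was lower (22.1% of all genes) and in 8 higher (22.6% of all genes). The calls depended on which library was left out: without Ctrl library 4 the edgeR test called 0 of the 30, with 8 at an unadjusted p below 0.05, and without Sox2 cKO library 1 it also called 0, with 9 at an unadjusted p below 0.05. DESeq2 called 5 of the 30 without Ctrl library 4 (14.5% of all genes) and 5 without Sox2 cKO library 1 (17.2% of all genes). Without Ctrl library 6 edgeR called 3 (6.54% of all genes), and without Ctrl library 2 it called 11 (36.9% of all genes). The count over all genes moved with the same libraries, to 26 without Ctrl library 4, 8 without Sox2 cKO library 1, 1082 without Ctrl library 6, 1359 without Sox2 cKO library 3 and 6119 without Ctrl library 2, from 3970 with all 6. In each of these fits the 7 genes had the same sign as with all 6 libraries. The edgeR log2 fold changes without a library were -0.56 to -0.42 for Hmgcs1, -0.59 to -0.43 for Srebf2 and -0.41 to -0.23 for Scap. They were -0.41 to -0.27 for Stard4, -0.59 to -0.44 for Soat1, -0.87 to -0.63 for Abcg1 and 0.35 to 0.52 for Cyp46a1. DESeq2 called Hmgcs1, Srebf2, Soat1 and Abcg1 in every fit without a library, but not Scap, Stard4 or Cyp46a1. Ctrl library 2 lay nearer to Sox2 cKO libraries 3 and 5 than to its own group: the chi-square per degree of freedom between counts was 15.74 and 11.55 against those, and 26.92 and 31.55 against Ctrl libraries 4 and 6. Against Sox2 cKO library 1 it was 30.11, about as far as its own group.

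Among the enzymes, Hmgcs1 stood apart. Hmgcs1 encodes HMG-CoA synthase of the cytosol, which makes the precursor of mevalonate. Its level was 647, 694 and 774 CPM in Ctrl and 449, 534 and 515 CPM in Sox2 cKO. All Sox2 cKO libraries lay below all Ctrl libraries, and library 1 was the lowest. The means were 705 ± 63.9 CPM (SD, n = 3) in Ctrl and 499 ± 45.1 CPM (SD, n = 3) in Sox2 cKO, a log2 fold change of -0.50 ± 0.10 (SE, adjusted p = 0.0136). The edgeR call ended without Ctrl library 4 (log2 fold change -0.51, adjusted p = 0.065) and without Sox2 cKO library 1 (-0.42, adjusted p = 0.0665). It held in the other edgeR fits that left out a library.

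The 250 bases before and the first 50 bases of the Hmgcs1 transcript are printed because this is the enzyme that was called and because it was the only member whose window held the sterol regulatory element searched for, TCACNCCAC, a sequence that SREBP proteins bind. The sequence is from RefSeq, build GRCm38.p6, plus strand, chr13:119690101-119690400. Capitals mark that element, CCAAT (the NF-Y motif, here as its reverse complement) and CAAAG (the core of the SOX2 motif, here as its reverse complement).
Hmgcs1: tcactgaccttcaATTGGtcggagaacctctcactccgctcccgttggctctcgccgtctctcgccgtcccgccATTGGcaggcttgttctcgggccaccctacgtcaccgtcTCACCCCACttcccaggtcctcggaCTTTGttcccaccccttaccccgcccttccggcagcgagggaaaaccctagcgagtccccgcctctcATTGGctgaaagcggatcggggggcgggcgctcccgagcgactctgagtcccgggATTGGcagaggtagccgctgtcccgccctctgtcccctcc
It held 1 sterol regulatory element, 4 copies of the NF-Y motif and 1 copy of the SOX2 core. Searched on both strands, the sterol element was present in 1.24% of all 32851 windows in the table, the NF-Y motif in 37.4% and the SOX2 core in 53.9%. Counted by gene, with any window of a gene, the shares were 1.44%, 41.1% and 57.4%. Of the 30 genes 25 were matched by symbol, with 35 windows, and those of Abcg1, Fdft1, Fdps, Sqle and Stard4 were not used here. Among the 25, the sterol element was found in 1, the NF-Y motif in 20 and the SOX2 core in 13. Only exact matches were counted, so variants of an element could be missed. A match describes the letters of the window and is no measure of binding.

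The first enzyme of the list, Acat2, joins acetyl-CoA units. It measured 72.8, 62.2 and 61.2 CPM in Ctrl and 75.7, 80.4 and 74.9 CPM in Sox2 cKO. Every Sox2 cKO library was above every Ctrl library, yet Ctrl library 2 came close to them, and the log2 fold change of 0.24 ± 0.09 (SE) did not pass the test (adjusted p = 0.0691). Dhcr7, which catalyses the last step of a branch that ends in cholesterol, measured 53.7, 57.3 and 57.1 CPM in Ctrl and 51.4, 56.6 and 53.0 CPM in Sox2 cKO. Here the groups overlapped, and the log2 fold change was -0.06 ± 0.08 (SE, adjusted p = 0.59).

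The other enzymes of the mevalonate and isoprenoid steps, Mvk, Pmvk, Mvd, Idi1 and Fdps, had log2 fold changes between -0.02 and 0.25. Sox2 cKO libraries were above all Ctrl libraries for Mvk and Pmvk, and the groups overlapped for Mvd, Idi1 and Fdps. Mvk (0.13) and Pmvk (0.25) lay near the medians of tested genes of similar length, 0.12 and 0.26. With a correction for gene length their log2 fold changes were 0.01 and -0.06. Fdft1, Sqle and Lss, which make squalene, oxidise it and close the rings of lanosterol, had log2 fold changes between -0.16 and -0.10. Sox2 cKO libraries were below all Ctrl libraries for Fdft1 and Sqle, and the groups overlapped for Lss. EdgeR called 0 of these 3, with 0 at an unadjusted p below 0.05, and DESeq2 also called 0. Of the 8 enzymes after lanosterol, which include the lanosterol demethylase Cyp51, the log2 fold changes lay between -0.18 and 0.21. The edgeR test called 0 of the 8, with 1 at an unadjusted p below 0.05, and DESeq2 called 0. The groups were apart for Tm7sf2, Nsdhl and Ebp, with Sox2 cKO above Ctrl, and for Cyp51, with Sox2 cKO below Ctrl. For Tm7sf2 the highest Ctrl and the lowest Sox2 cKO library both rounded to 16.6 CPM. With the length correction the log2 fold changes were -0.12 for Tm7sf2, 0.07 for Nsdhl, -0.01 for Ebp and -0.13 for Cyp51. Over the 18 enzymes the groups were apart for 10, beside 44.7% of all genes tested. Sox2 cKO was lower in 4 of these (22.1% of all genes) and higher in 6 (22.6% of all genes). The 19 members whose libraries are not listed here had log2 fold changes between -0.22 and 0.25 and adjusted p-values between 0.0716 and 0.975.

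Of the 18 enzymes, then, 1 fell, 5.56% of them, beside 12.4% of all genes tested that were called lower. The median log2 fold change was 0.02, the same as that of all genes, with 8 enzymes below 0 and 10 above. With another test and scaling together, limma on log2(FPKM + 1), which uses the authors' values without TMM, called 4 enzymes higher and 1 lower, with a median of 0.12. The median of all genes on that scale was 0.089, and 24.3% of them were called, of which 25.5% were lower, beside 50.6% of the calls in edgeR. With the length correction the median of the 18 was -0.05. The mean over the 18 enzymes of log2 CPM, relative to the mean of each gene, was 0.04, -0.06 and 0.01 in Ctrl and -0.06, 0.07 and -0.00 in Sox2 cKO. No library stood apart on this measure, and the groups overlapped.

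Per length, the enzymes spanned a wide range, and Hmgcs1 dominated. FPKM, the authors' counts divided by gene length and library total, allow levels of different genes to be compared. Averaged over the 6 libraries, Hmgcs1 reached 185 FPKM, followed among the enzymes by Fdps at 63.8, Msmo1 at 48.5, Fdft1 at 44.9 and Cyp51 at 41.1 FPKM. Hsd17b7 (9.53 FPKM) and Lss (7.05 FPKM) were the lowest of the 18. Hmgcs1 made up 30.1%, 33.3% and 34.8% of the summed FPKM of the 18 enzymes in Ctrl, and 23.8%, 25.8% and 25.8% in Sox2 cKO. Its share was lower in every Sox2 cKO library, while the sums themselves overlapped, at 661, 621 and 647 FPKM in Ctrl and 617, 661 and 625 FPKM in Sox2 cKO.

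**Figure D2:**
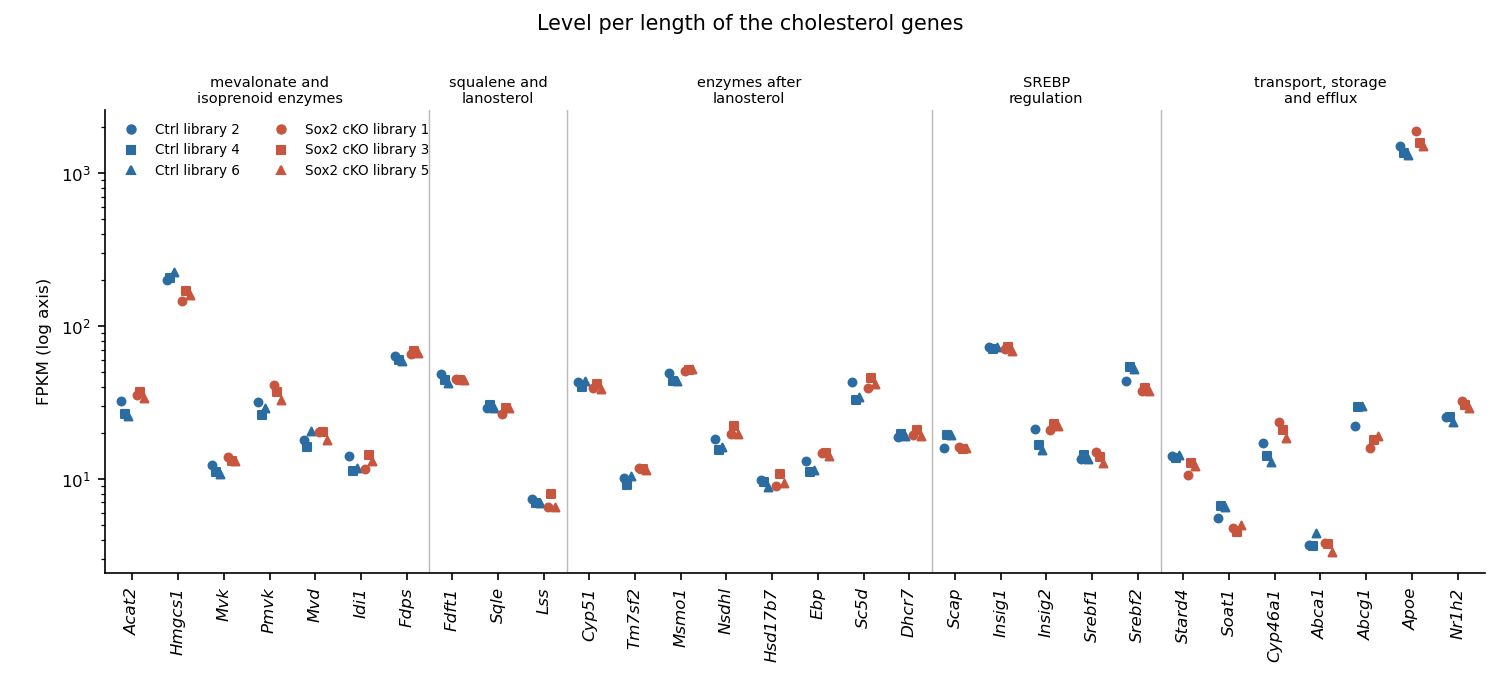
FPKM of each of the 30 genes in each library on a log axis, ordered by role, with Ctrl in blue and Sox2 cKO in red. Apoe, near 1527 FPKM, is the most abundant and Abca1, near 3.76 FPKM, the least.

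Control of the pathway was represented by the transcription factors Srebf1 and Srebf2, their escort Scap and the retention proteins Insig1 and Insig2. Srebf2 encodes SREBP2, the SREBP that acts mainly on cholesterol genes. Its level was 219, 279 and 277 CPM in Ctrl and 177, 189.9 and 187 CPM in Sox2 cKO. The groups were apart, and the 3 Sox2 cKO libraries lay close together while Ctrl library 2 was the lowest of its group. With means of 258 ± 34.1 CPM (SD, n = 3) and 184 ± 6.68 CPM (SD, n = 3), Srebf2 fell by 0.49 ± 0.10 on the log2 scale (SE, adjusted p = 0.0145). It lost its call without Ctrl library 4 (adjusted p = 0.0717), Ctrl library 6 (adjusted p = 0.0502) or Sox2 cKO library 1 (adjusted p = 0.0697).

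The Srebf2 window (RefSeq, GRCm38.p6, plus strand, chr15:82147019-82147318) is shown beside that of Hmgcs1, with the same motifs in capitals. It held 1 copy of the NF-Y motif, 0 exact matches of the sterol element and 0 of the SOX2 core. The stretch tcaccccat, which differs from the sterol element searched for in its last base, was not counted.
Srebf2: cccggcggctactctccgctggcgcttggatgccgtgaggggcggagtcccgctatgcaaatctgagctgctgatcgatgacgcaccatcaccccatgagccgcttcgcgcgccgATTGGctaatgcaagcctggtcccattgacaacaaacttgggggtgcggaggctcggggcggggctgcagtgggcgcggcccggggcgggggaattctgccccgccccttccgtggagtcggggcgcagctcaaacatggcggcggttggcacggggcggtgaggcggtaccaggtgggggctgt

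Srebf1, whose product acts more on fatty acid genes, measured 58.4, 63.9 and 61.4 CPM in Ctrl and 60.4, 57.7 and 53.7 CPM in Sox2 cKO. These ranges overlapped, and the log2 fold change was -0.10 ± 0.08 (SE, adjusted p = 0.39). Scap, which carries SREBP proteins from the endoplasmic reticulum to the Golgi, measured 68.0, 85.3 and 87.5 CPM in Ctrl and 64.7, 64.0 and 66.8 CPM in Sox2 cKO. The Sox2 cKO libraries lay just below Ctrl library 2, and the log2 fold change of -0.30 ± 0.10 (SE) barely passed (adjusted p = 0.0493). Without Ctrl library 2 the adjusted p of Scap was 0.00138, and without any other library it lay between 0.0955 and 0.175, so the call was lost in those 5 fits. Scap was also not called with upper quartile scaling (adjusted p = 0.0732) or by limma on log2(FPKM + 1) (adjusted p = 0.155), and over all alternatives its log2 fold change lay between -0.41 and -0.18. Insig1 had a log2 fold change of -0.13 and Insig2 of 0.21, and neither was called.

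Of the genes of transport, storage, turnover and efflux, Abcg1 had the largest log2 fold change of the 30. Abcg1, a membrane transporter that moves cholesterol out to lipoprotein particles, measured 80.2, 111 and 115 CPM in Ctrl and 54.2, 62.9 and 67.9 CPM in Sox2 cKO. The groups were apart in every library, with Ctrl library 2 nearest to Sox2 cKO. The means of 102 ± 18.8 CPM (SD, n = 3) and 61.7 ± 6.93 CPM (SD, n = 3) gave a log2 fold change of -0.72 ± 0.13 (SE, adjusted p = 0.0127), a level 1.65-fold lower. Without Ctrl library 4 (adjusted p = 0.065) or Sox2 cKO library 1 (adjusted p = 0.0656) the call was lost. Abca1, a related transporter that loads cholesterol onto lipid-poor apolipoproteins, had a log2 fold change of -0.22 ± 0.10 (SE) and was not called (adjusted p = 0.148). With a correction for gene length the log2 fold change of Abca1 was 0.16 (adjusted p = 0.327), so its direction depended on the processing.

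Soat1, which esterifies cholesterol for storage, measured 46.8, 57.7 and 57.8 CPM in Ctrl and 37.4, 36.6 and 41.3 CPM in Sox2 cKO. No Sox2 cKO library reached the lowest Ctrl library, library 2. Soat1 fell by 0.49 ± 0.10 on the log2 scale (SE, adjusted p = 0.0137), but it is long, and with a correction for gene length the log2 fold change was -0.17 (adjusted p = 0.156). Without Ctrl library 4 (adjusted p = 0.0695) or Sox2 cKO library 1 (adjusted p = 0.0667) it was not called. Stard4, a sterol carrier of the cytosol, measured 72.9, 71.9 and 78.0 CPM in Ctrl and 51.2, 62.5 and 60.9 CPM in Sox2 cKO. Sox2 cKO library 1 was again the lowest, and all 3 were below Ctrl, with a log2 fold change of -0.35 ± 0.09 (SE, adjusted p = 0.0233). The call of Stard4 was lost without Ctrl library 4 (adjusted p = 0.0763), Ctrl library 6 (adjusted p = 0.0786) or Sox2 cKO library 1 (adjusted p = 0.081), and by limma on log2(FPKM + 1) (adjusted p = 0.0637).

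Cyp46a1, an enzyme of neurons that turns cholesterol into 24S-hydroxycholesterol, the form in which brain cholesterol leaves for the blood, was the member that rose. It measured 36.4, 30.8 and 29.1 CPM in Ctrl and 47.1, 43.0 and 38.9 CPM in Sox2 cKO. All Sox2 cKO libraries were above all Ctrl libraries, with the smallest gap between Ctrl library 2 and Sox2 cKO library 5. The means of 32.1 ± 3.83 and 43.0 ± 4.09 CPM (SD, n = 3 each) gave a log2 fold change of 0.42 ± 0.11 (SE, adjusted p = 0.0232). The call was lost without Ctrl library 4 (adjusted p = 0.0983), Ctrl library 6 (adjusted p = 0.0806), Sox2 cKO library 1 (adjusted p = 0.096) or Sox2 cKO library 3 (adjusted p = 0.0694).

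The Cyp46a1 window (RefSeq, GRCm38.p6, plus strand, chr12:108334066-108334365) is printed as that of the member called higher. It held 2 copies of the SOX2 core and 1 of the NF-Y motif, in capitals.
Cyp46a1: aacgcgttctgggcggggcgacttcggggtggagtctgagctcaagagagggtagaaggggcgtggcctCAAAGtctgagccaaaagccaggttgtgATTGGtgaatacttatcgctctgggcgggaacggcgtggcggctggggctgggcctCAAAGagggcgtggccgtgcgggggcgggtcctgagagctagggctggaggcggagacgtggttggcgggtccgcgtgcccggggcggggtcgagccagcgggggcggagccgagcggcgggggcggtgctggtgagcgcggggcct

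Apoe, the main apolipoprotein of the nervous system and largely a product of astrocytes, measured 2124, 1950 and 1930 CPM in Ctrl and 2468, 2114 and 2075 CPM in Sox2 cKO. Ctrl library 2 lay between Sox2 cKO libraries 1 and 3, so the groups overlapped. The log2 fold change was 0.15 ± 0.10 (SE, adjusted p = 0.275), and with the length correction it was -0.12 (adjusted p = 0.243). Over all alternatives its log2 fold change lay between -0.12 and 0.24, so its direction depended on the processing. Nr1h2, which encodes the sterol-sensing nuclear receptor LXR beta, had a log2 fold change of 0.20 ± 0.07 (SE, adjusted p = 0.0716), with Sox2 cKO above Ctrl in all libraries. With the length correction the log2 fold change of Nr1h2 was 0.03 (adjusted p = 0.776).

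The Apoe window is printed because a SOX2 site lies in it, from ChIP-seq of adult cerebral cortex that the study reanalysed. The list holds only the sites of highest enrichment. Of its sequences 1046 could be read, and a match was found in 1 of the 35 windows of the members. Sites outside these windows, and sites of lower enrichment, were not looked for here. The matched stretch is at chr7:19699224-19699254 (build GRCm38.p6, minus strand as printed), and its core of 11 bases, in capitals, lies 46 to 56 bases before the start of transcription, upstream of the first exon.
SOX2 site at Apoe: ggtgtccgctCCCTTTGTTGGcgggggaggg
The whole window (RefSeq, minus strand, chr7:19699139-19699438) had no sterol element and no NF-Y motif, and the SOX2 core is in capitals.
Apoe: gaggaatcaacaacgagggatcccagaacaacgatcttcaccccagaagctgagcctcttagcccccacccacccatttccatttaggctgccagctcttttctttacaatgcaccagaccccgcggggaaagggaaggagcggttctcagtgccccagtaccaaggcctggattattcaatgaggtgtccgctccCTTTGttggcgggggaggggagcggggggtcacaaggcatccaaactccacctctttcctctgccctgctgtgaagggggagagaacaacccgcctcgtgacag
Beside this site stand the Apoe values given above, which overlapped between the groups. Binding was not measured in these spinal cords.

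Apoe was by far the most abundant of the 30 per length, at 1527 FPKM averaged over the 6 libraries. Next came Hmgcs1 at 185 FPKM, Insig1 at 71.7 FPKM, Fdps at 63.8 FPKM and Msmo1 at 48.5 FPKM. Soat1 at 5.49 FPKM and Abca1 at 3.76 FPKM closed the order, and 26 of the 30 reached 10 FPKM. Within the order, the levels of neighbours such as Idi1 (12.7 FPKM), Mvk (12.4 FPKM) and Stard4 (12.9 FPKM) overlapped across libraries.

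**Figure D3:**
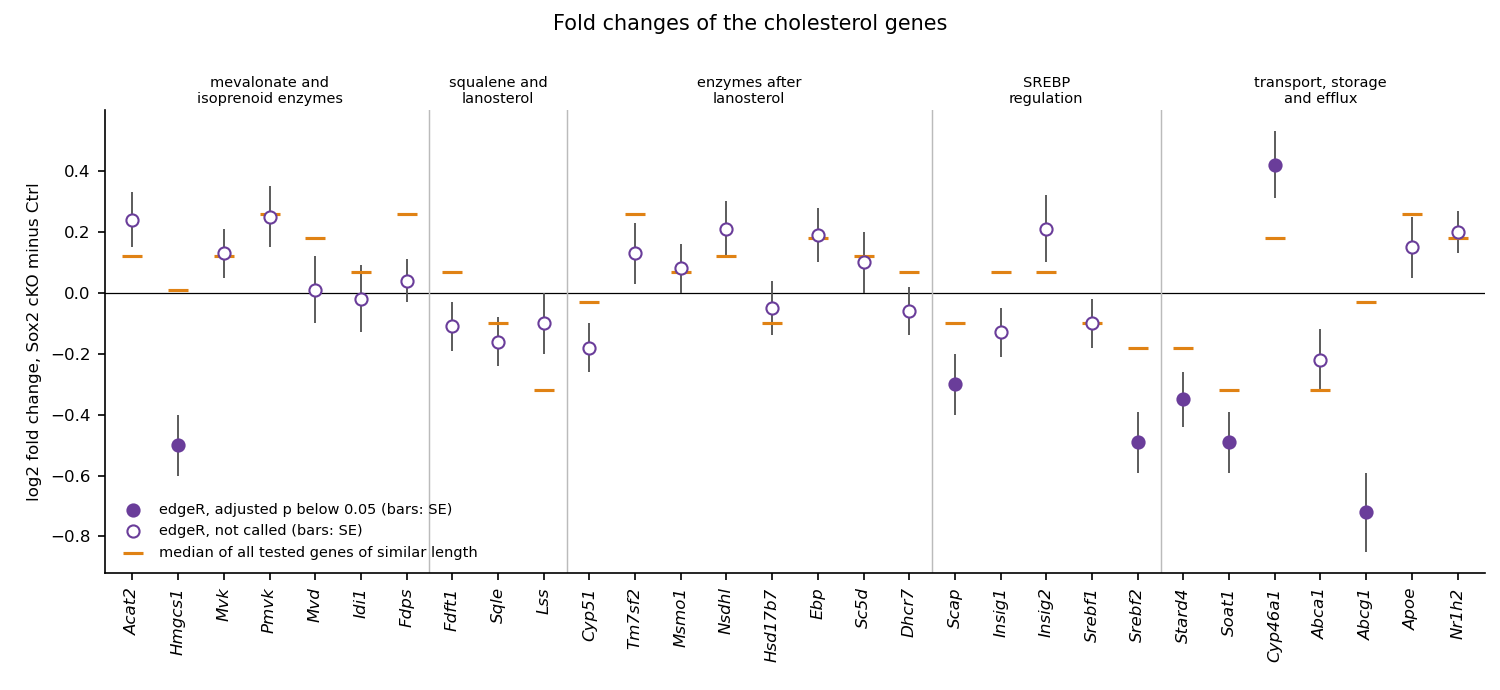
Log2 fold change of each of the 30 genes, Sox2 cKO minus Ctrl, with its standard error, ordered by role, with orange marks for the median over all tested genes of similar length. Filled points passed an adjusted p of 0.05 in edgeR and are Hmgcs1, Scap, Srebf2, Stard4, Soat1, Cyp46a1 and Abcg1, with Hmgcs1 and Abcg1 farthest from their orange marks.

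Fold changes in these libraries followed gene length, which bears on the reading of each gene. The median log2 fold change of tested genes was 0.35 in the shortest and -0.32 in the longest of 10 classes of equal size by length. The 30 members span 1194 bases (Pmvk) to 10262 bases (Abca1). Against the median of its own class, Abcg1 differed by -0.69 on the log2 scale. Hmgcs1 differed by -0.50, Srebf2 by -0.30 and Cyp46a1 by 0.25. Scap, Soat1 and Stard4 lay nearer to their classes, between -0.20 and -0.17. Over the 30, 11 lay above the median of their class and 19 at or below it, with a median distance of -0.08. With a correction for length in the fit, 4 of the 30 were called, all lower: Hmgcs1 (log2 fold change -0.51, adjusted p = 0.0192), Srebf2 (-0.34, adjusted p = 0.0288), Abcg1 (-0.70, adjusted p = 0.0193) and Fdps (-0.26, adjusted p = 0.0463). Scap, Stard4, Soat1 and Cyp46a1 were not called then, with adjusted p-values of 0.105, 0.0879, 0.156 and 0.0628. Under this correction 13.1% of all genes tested were called.

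**Figure D4:**
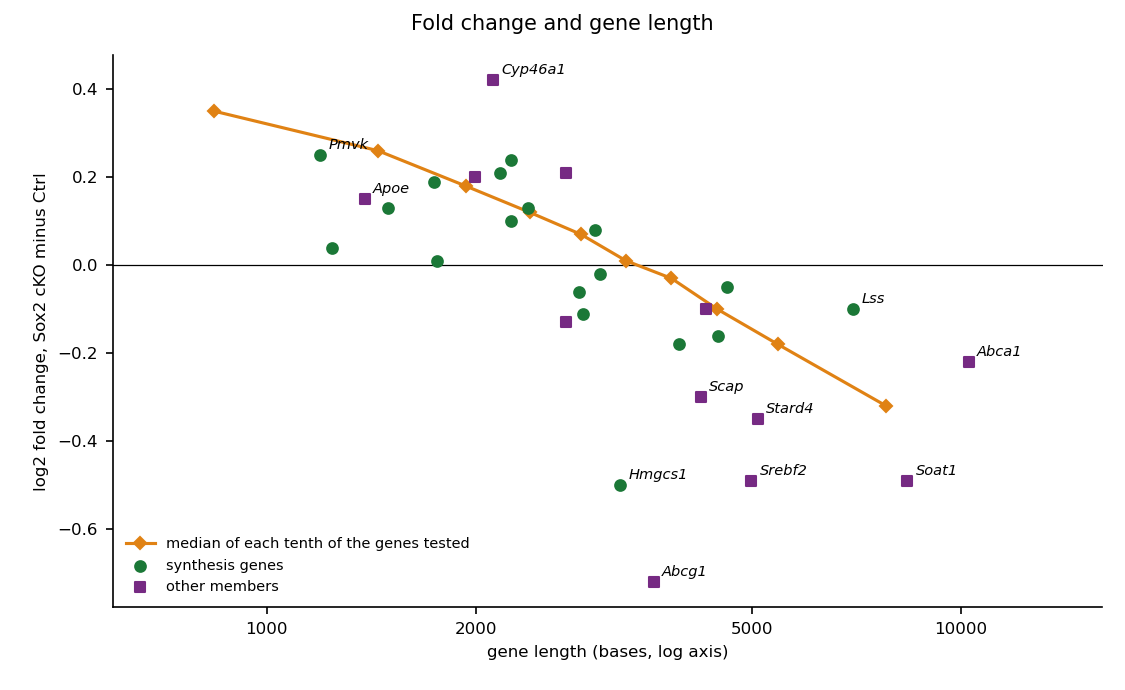
Log2 fold change of each of the 30 genes, Sox2 cKO minus Ctrl, against gene length on a log axis, with green points for the 18 synthesis genes and purple squares for the 12 others, and the orange line joins the medians of 10 classes of all tested genes by length, from 0.35 to -0.32. Abcg1 and Hmgcs1 lie far below it and Cyp46a1 above it.

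Genes beside the pathway were described by 4 further lists. In fatty acid synthesis, the other branch under SREBP control, 6 of 11 genes fell, beside 12.4% of all genes tested, with a median log2 fold change of -0.46. Fads1, a desaturase, measured 273, 315 and 360.3 CPM in Ctrl and 218, 214 and 208 CPM in Sox2 cKO. Fasn, the fatty acid synthase, measured 369, 534 and 533 CPM in Ctrl and 282, 315 and 311 CPM in Sox2 cKO. In both genes the groups were apart. The log2 fold change of Fads1 was -0.57 ± 0.10 (SE, adjusted p = 0.0126) and that of Fasn -0.66 ± 0.14 (SE, adjusted p = 0.0137). Fads2, a second desaturase, had -0.49 ± 0.11 (SE, adjusted p = 0.0147). With the length correction 5 of the 11 were called, all lower, beside 13.1% of all genes tested in either direction. The median of the list was then -0.29, and Fasn had a log2 fold change of -0.29 (adjusted p = 0.042). The mean relative level of this list was 0.04, 0.19 and 0.27 in Ctrl and -0.25, -0.13 and -0.12 in Sox2 cKO, so the groups were apart, whereas those of the 18 cholesterol enzymes overlapped.

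**Figure D5:**
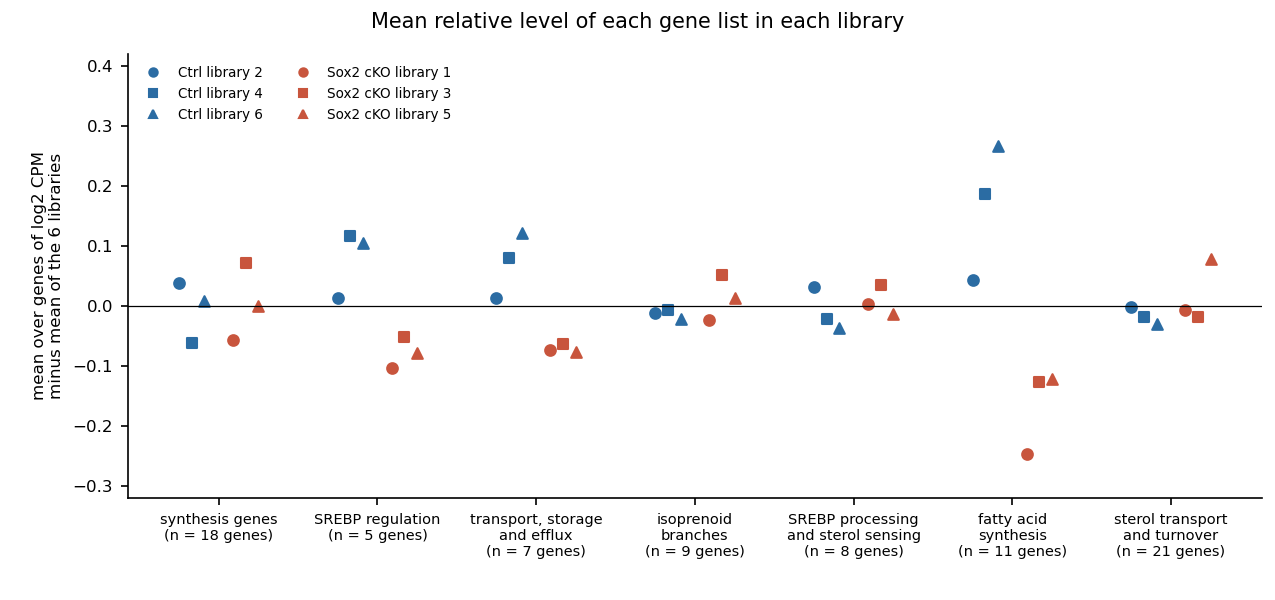
Mean over the genes of each list of log2 CPM minus the mean of that gene over the 6 libraries, for each library, with Ctrl in blue and Sox2 cKO in red. Fatty acid synthesis spans -0.25 to 0.27 with the groups apart, and the 18 cholesterol synthesis genes lie between -0.06 and 0.07 with the groups mixed.

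Of the isoprenoid branches, which use the same precursors for prenylated proteins, dolichol and ubiquinone, 1 of 9 genes fell, which at 11.1% was near the 12.4% of all genes tested. That gene was Pggt1b, a subunit of a protein prenyltransferase, with 15.4, 19.9 and 18.4 CPM in Ctrl, 10.3, 13.7 and 12.5 CPM in Sox2 cKO and a log2 fold change of -0.55 ± 0.14 (SE, adjusted p = 0.0208). Pdss1 and Coq2, of ubiquinone synthesis, had 0.45 (adjusted p = 0.0613) and 0.23 (adjusted p = 0.0895). In SREBP processing and sterol sensing, 1 of 8 genes rose, the NF-Y subunit gene Nfyc, with a log2 fold change of 0.35 ± 0.10 (SE, adjusted p = 0.0276). Sp1 had -0.21 (adjusted p = 0.112), and Mbtps2, a protease that releases SREBP proteins, had -0.13 (adjusted p = 0.252). With the length correction Nfyc was not called (0.19, adjusted p = 0.132). The share called in this list was 12.5%, beside 24.6% of all genes tested.

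Among other genes of sterol transport and turnover, 21 of 23 were tested, of which 3 fell and 4 rose. This was 33.3% called, beside 24.6% of all genes tested. Lrp1, a receptor that takes up apolipoprotein E particles, measured 515, 808 and 751 CPM in Ctrl and 391, 439 and 457 CPM in Sox2 cKO, a log2 fold change of -0.69 ± 0.15 (SE, adjusted p = 0.015). Abca2, a lipid transporter of oligodendrocytes, had -0.56 ± 0.13 (SE, adjusted p = 0.0163). Cyp27a1, which hydroxylates the side chain of cholesterol, measured 39.6, 29.1 and 21.3 CPM in Ctrl and 57.1, 49.8 and 48.5 CPM in Sox2 cKO, a log2 fold change of 0.79 ± 0.18 (SE, adjusted p = 0.017). In all 3 genes no Sox2 cKO library fell within the Ctrl range. After the length correction 1 of the 21 was called, Cyp27a1 at 0.61 (adjusted p = 0.0341), beside 13.1% of all genes tested.

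Markers of the cell types of the cord were read beside these results, since several members are made mainly by astrocytes, oligodendrocytes or neurons. In whole tissue, fewer cells of a type and less RNA per cell cannot be told apart. Of 12 astrocyte markers 6 fell and 1 rose, 58.3% beside 24.6% of all genes tested. With the length correction 3 were called, all lower, beside 13.1% of all genes tested in either direction. Their summed level was 8866, 9232 and 10695 CPM in Ctrl and 6942, 6876 and 7139 CPM in Sox2 cKO, with Gfap the most abundant per length. Gfap had a log2 fold change of -1.11 ± 0.15 (SE, adjusted p = 0.0103), Slc1a2 of -0.62 ± 0.12 (SE, adjusted p = 0.0136) and Aqp4 of -0.44 ± 0.09 (SE, adjusted p = 0.0149). Corrected for length, Slc1a2 was not called (adjusted p = 0.0928). S100b was the marker that rose, with 0.71 ± 0.18 (SE, adjusted p = 0.0229) and all Sox2 cKO libraries above Ctrl, and it too was not called with the length correction (adjusted p = 0.0615). The astrocyte sum was lower in every Sox2 cKO library. Without Gfap and Slc1a2 the other 10 markers summed to 4365, 4010 and 4271 CPM in Ctrl and 3961, 3999 and 4087 CPM in Sox2 cKO, and the groups overlapped. These 10 hold S100b, at 788, 502 and 434 CPM in Ctrl and 938, 929 and 948 CPM in Sox2 cKO. They also hold Aqp4, Aldh1l1, Slc1a3 and Acsbg1, which were called lower. Aldh1l1 (adjusted p = 0.051) and Slc1a3 (adjusted p = 0.0565) were not called with the length correction. The overlap thus does not show that the fall lay in Gfap and Slc1a2 alone.

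Of 12 oligodendrocyte markers 1 fell in edgeR (8.33%, beside 12.4% of all genes tested), whereas DESeq2 called 5 (beside 27.7% of all genes). With the length correction 3 of the 12 were called, beside 13.1% of all genes. Their sum was 37337, 33445 and 37041 CPM in Ctrl and 36136, 33577 and 35396 CPM in Sox2 cKO, so the groups overlapped, and Mbp was the most abundant per length. Without Mbp the other 11 summed to 22831, 21274 and 24361 CPM in Ctrl and 20806, 19156 and 20378 CPM in Sox2 cKO, lower in every Sox2 cKO library. The groups were apart for 5 of the 12, all lower, beside 22.1% of all genes tested. Mbp had a log2 fold change of 0.19 (adjusted p = 0.181), or 0.31 with the length correction (adjusted p = 0.062), and Ctrl and Sox2 cKO overlapped. Myrf had a log2 fold change of -0.42 ± 0.11 (SE, adjusted p = 0.0249), Cnp of -0.23 (adjusted p = 0.0626) and Mal of -0.24 (adjusted p = 0.0705). With the length correction Myrf was not called (adjusted p = 0.0944), whereas Cnp (adjusted p = 0.0293), Mal (adjusted p = 0.0327) and Cldn11 (adjusted p = 0.0245) were called lower. Of 6 precursor markers 5 matched the table and were tested, and 4 fell, beside 12.4% of all genes tested. Under the length correction 2 of the 5 were called, both lower, beside 13.1% of all genes tested in either direction. The calls of Pdgfra (adjusted p = 0.238) and Cspg4 (adjusted p = 0.061) were then lost. Bmp4 was above Ctrl in every Sox2 cKO library (0.34, adjusted p = 0.159). The sum of these markers was 263, 297 and 306 CPM in Ctrl and 154, 191 and 205 CPM in Sox2 cKO, and Ptprz1, the most abundant, had -0.72 ± 0.12 (SE, adjusted p = 0.0124).

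Of 10 neuronal markers 1 fell and 1 rose, 20% beside 24.6% of all genes tested, and DESeq2 called 4 (beside 27.7% of all genes). Their sum was 11664, 11522 and 12125 CPM in Ctrl and 10926, 11055 and 11352 CPM in Sox2 cKO, lower in every Sox2 cKO library. Without Nefm and Nefh the other 8 summed to 5752, 4940 and 4772 CPM in Ctrl and 5693, 6046 and 5882 CPM in Sox2 cKO, and the groups overlapped. The groups were apart for 5 of the 10, beside 44.7% of all genes tested. Of these, 2 were lower (22.1% of all genes) and 3 higher (22.6% of all genes) in Sox2 cKO. Nefm, the most abundant of them, had a log2 fold change of -0.28 (adjusted p = 0.0592). The markers of this list did not move together: Nefh fell (-0.45 ± 0.11, SE, adjusted p = 0.0177) and Stmn2 rose (0.30 ± 0.09, SE, adjusted p = 0.0379). After correction for length Stmn2 was not called (adjusted p = 0.252), Nefh kept its call (adjusted p = 0.0285) and Snap25 was called higher (0.48, adjusted p = 0.0401). Microglial markers summed to 316, 299.6 and 344 CPM in Ctrl and 421, 317 and 271 CPM in Sox2 cKO, and 1 of 8 rose (12.5%, beside 12.2% of all genes tested), Ctss, the most abundant (0.77 ± 0.24, SE, adjusted p = 0.041). Schwann cell markers summed to 157, 127 and 107 CPM in Ctrl and 151, 143 and 141 CPM in Sox2 cKO, and edgeR called 0 of 4, with 0 at an unadjusted p below 0.05 and 0 called by DESeq2. Pmp22, the most abundant, had a log2 fold change of 0.18 (adjusted p = 0.276), Ncmap of 0.16 (adjusted p = 0.625) and Prx of -0.21 (adjusted p = 0.65).

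Endothelial markers summed to 128, 139 and 154 CPM in Ctrl and 214, 146 and 147 CPM in Sox2 cKO, and 1 of 4 rose (25%, beside 12.2% of all genes tested), Ly6c1, the most abundant (1.09 ± 0.19, SE, adjusted p = 0.0125). Meningeal fibroblast markers summed to 250.1, 233 and 111 CPM in Ctrl and 213, 187 and 186 CPM in Sox2 cKO, and edgeR called 0 of 4, with 0 at an unadjusted p below 0.05 and 0 called by DESeq2. Dcn was the most abundant (log2 fold change 0.61, adjusted p = 0.133), while Col1a1 had -0.50 and Col1a2 had -0.22. Red blood cell markers summed to 57.1, 75.0 and 166 CPM in Ctrl and 82.4, 76.8 and 98.4 CPM in Sox2 cKO, and edgeR called 0 of 5, with 0 at an unadjusted p below 0.05 and 0 called by DESeq2. Hbb-bs was the most abundant (log2 fold change -0.02, adjusted p = 0.958). No marker that matched the table was at 0 counts over the 6 libraries. The part of these cell types in the results for cholesterol genes was not tested.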

How the data were processed

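Whole spinal cord of 3 animals a group gave poly(A) RNA for a directional library kit. The authors' alignment to mm10 used STAR 2.5, and the deposited counts are their reads per gene from HTSeq 0.6.1, without normalization. The deposited FPKM were made by the authors from counts, gene lengths and library totals. The strand setting of the counting is not given in the sources used here, so reads may be shared where genes overlap on opposite strands, as for Fdft1, Cyp51, Lss, Scap and Srebf1. The numbered columns match no sample name. They were grouped by the mouse numbers of a blot of brain protein in the paper, on the assumption that the same mice gave the RNA. This grouping was then compared with group means that the paper lists under the group names. Recomputed means matched for 1999 of 1999 genes within a relative difference of 0.0001, and for 0 with the groups exchanged. There were 0 other columns of per-sample values.

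The edgeR 4.0.16 fit (R 4.3.3) used filterByExpr, TMM and the quasi-likelihood test without covariates, with Benjamini-Hochberg adjustment over 16137 genes at 0.05. The biological coefficient of variation was 0.119. With 3 libraries against 3, an exact permutation test cannot give p below 0.1. Gene lengths were recovered from counts and FPKM, and were whole numbers within 0.01 for 24442 of 24442 genes with a count. Symbols came from GENCODE M21 (34490 of 35275 matched) and promoter sequences from RefSeq. The genes named were Sox2 and the 30 members. Values of every library were given for members called or past 1.2-fold, for Apoe, Srebf1, Srebf2 and Soat1, and for the enzymes at either end of the pathway. Of the 4 other pathway lists and the astrocyte, oligodendrocyte and Schwann cell markers, the 3 smallest adjusted p-values were named, and of other marker lists the most abundant gene per length. S100b, Aldh1l1, Slc1a3, Acsbg1, Nefh, Stmn2, Snap25, Cldn11, Mbp, Pdgfra, Cspg4, Bmp4, Col1a1 and Col1a2 were chosen after their values were seen. Sums of marker lists without named genes were also chosen after the values were seen. Some genes of these lists were left out and are not used here. Members and lists were chosen with earlier results of these data known. Alternatives were DESeq2 1.42.0, upper quartile scaling, no filter, at least 10 counts in every library, limma 3.58.1 on log2(FPKM + 1) and log2(FPKM + 0.1) for genes with a mean of at least 0.5 FPKM, a length correction by lowess (span 0.3) and leaving out each library. The fits were tested on simulated data. Those data had the same spread between replicates for every gene and no trend with gene length. They therefore did not test the removal of such a trend or the dependence on single libraries.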

Additional observations from a re-analysis of the deposited data

How the results depend on the processing

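No paired analysis was possible because the deposited columns carry no replicate numbers. With DESeq2, no filter on low counts or at least 10 counts in every library, the same 7 of the 30 cholesterol genes were called as in the report. Upper quartile scaling called 8 (without Scap, and with Acat2 and Nr1h2 higher), 2 of them synthesis genes. On log2(FPKM + 1) and log2(FPKM + 0.1) limma called 10, of which 5 were synthesis genes, with a synthesis median of 0.12 in each, and without Scap and Stard4. The median over all genes was then 0.089 and 0.113, and 25.5% of all calls were lower, beside 50.6% in the report. The length correction called 2109 genes, 4 members and 2 synthesis genes, with a synthesis median of -0.05, and turned Fdps from 0.04 to -0.26 (adjusted p = 0.0463). The cause was not tested. Leaving out a library in edgeR gave between 8 and 6119 called genes, between 0 and 11 members and between 0 and 4 synthesis genes, with a synthesis median between -0.01 and 0.07. DESeq2 fits without a library were added after the data had been received, because an earlier edgeR count of these data was known to change strongly without a library. They called between 1981 and 5624 genes and between 4 and 11 members, with 3 synthesis genes called without Ctrl library 2. Fewer libraries were compared in these fits, and the cause of the differences between them was not tested, though Ctrl library 2, the omission of which gave the most calls, lay nearer to Sox2 cKO libraries 3 and 5 than to the other Ctrl libraries. The 7 genes called in the report kept their sign in every alternative. With 3 libraries a group, a gene that was not called may still differ.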
